A study of Mus musculus with 6 samples.

Results

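Protocadherins are adhesion proteins of the cadherin family, and their genes were followed in mouse teratomas that received a miR-124a mimic or a negative control. The members are all genes whose name in the array annotation starts with Pcdh, which gave 48 genes and 73 probes of the 37008 gene names and 56605 probes on the array. They comprise 7 Pcdha, 22 Pcdhb and 7 Pcdhg genes of the clustered family and 12 non-clustered genes. The RefSeq gene table of GRCm38.p6 holds 70 such genes. All 22 Pcdhb and all 12 non-clustered genes of that table are on the array by name, but only 7 of its 14 Pcdha and 7 of its 22 Pcdhg genes are. Of the 48 genes, 38 lie on chromosome 18, namely the 36 clustered genes, Pcdh1 and Pcdh12.

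Teratomas are growths in which pluripotent stem cells develop into a mixture of tissues. Mouse embryonic stem cells were implanted under the skin of BALB/c Nude mice, which lack T cells and keep their macrophages and blood vessels, and 3 mice were randomised to each group. In the miR-124a group, a mimic of miR-124a-3p, a microRNA abundant in neurons, was complexed with the carrier Atelogen QG and injected into the tumour. The control group received a microRNA negative control with the same carrier. Both groups were injected at 15 µg per 100 µL every 3 days until day 28, from about 10 days after implantation, when tumours had reached 100 mm3. RNA came from 1 of the 2 pieces of each tumour and was hybridised to 1-colour Agilent arrays on 1 slide. The arrays do not tell host RNA from stem cell RNA, and the stem cell line is not given in the labels.

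The clustered protocadherin genes stand in a row as alpha, beta and gamma groups. Each alpha or gamma isoform joins a variable exon of its own to constant exons shared by the whole group, while a beta gene is a single exon. A neuron switches on its own random few of these genes, a choice of promoters that depends on CTCF and cohesin, whereas the C-type isoforms at the end of the alpha and gamma groups are used more evenly. The proteins bind copies of themselves on other membranes, which lets the branches of a neuron recognise and avoid each other. Non-clustered protocadherins are separate genes with a promoter each, mostly active in the developing nervous system, and are divided by their cytoplasmic motifs into delta-1 members, which can bind protein phosphatase 1, and delta-2 members, several of which bind the WAVE actin regulator.

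Most protocadherins had somewhat higher signals in the miR-124a tumours than in the control tumours, and none of them passed the test across all genes. Differences are log2 fold changes, miR-124a over control, with their standard error (SE, n = 3 tumours per group). Levels are relative signals, that is, the spot intensity as a multiple of the 75th percentile of its array. Of the 48 genes, 40 were tested because every array of the miR-124a group, of the control group or of both read them well above background, and 0 of the 40 passed an adjusted p of 0.05 (limma, Benjamini-Hochberg over 22946 genes). Over all genes tested, 3.23% passed, 0.488% higher and 2.75% lower. At an unadjusted limma p under 0.05, 13 of the 40 protocadherins were higher and 0 were lower, where 27.3% of all genes tested differed, 11.4% higher and 15.9% lower. For 14 protocadherins every miR-124a tumour lay above every control tumour, and for 0 it was the reverse, where 15.0% of all genes tested had separate groups with miR-124a higher and 20.6% with miR-124a lower. A log2 fold change above 0 was found for 36 of the 40 protocadherins (37 with quantile scaling) and for 49.7% of all genes tested. The median was 0.33 over the 40 protocadherins and -0.00 over all genes tested, and after normexp background correction with quantile scaling it was 0.21 over the protocadherins and 0.01 over all genes tested.

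The filter bears on these counts. Pcdha11, Pcdhb5 and Pcdhb19 were tested only because they were well above background on all 3 miR-124a arrays, since 1, 1 and 2 of the 3 control arrays reached it. The other 37 tested genes were well above background on all 6 arrays, and 33 of them had a log2 fold change above 0 in a fit limited to genes that were. Of the 8 untested genes, Pcdhac1, Pcdhb1, Pcdhb9, Pcdhga5, Pcdhga12 and Pcdhgb1 were not well above background on any array, Pcdhga10 was so on 1 control array, and Pcdhgc5 on 1 miR-124a array. The miR-124a arrays filled places in slide row 2 and the control arrays in slide row 1, so group and row cannot be told apart. In tumour RNA, fewer cells of a type and less RNA per cell cannot be told apart either.

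**Figure D1:**
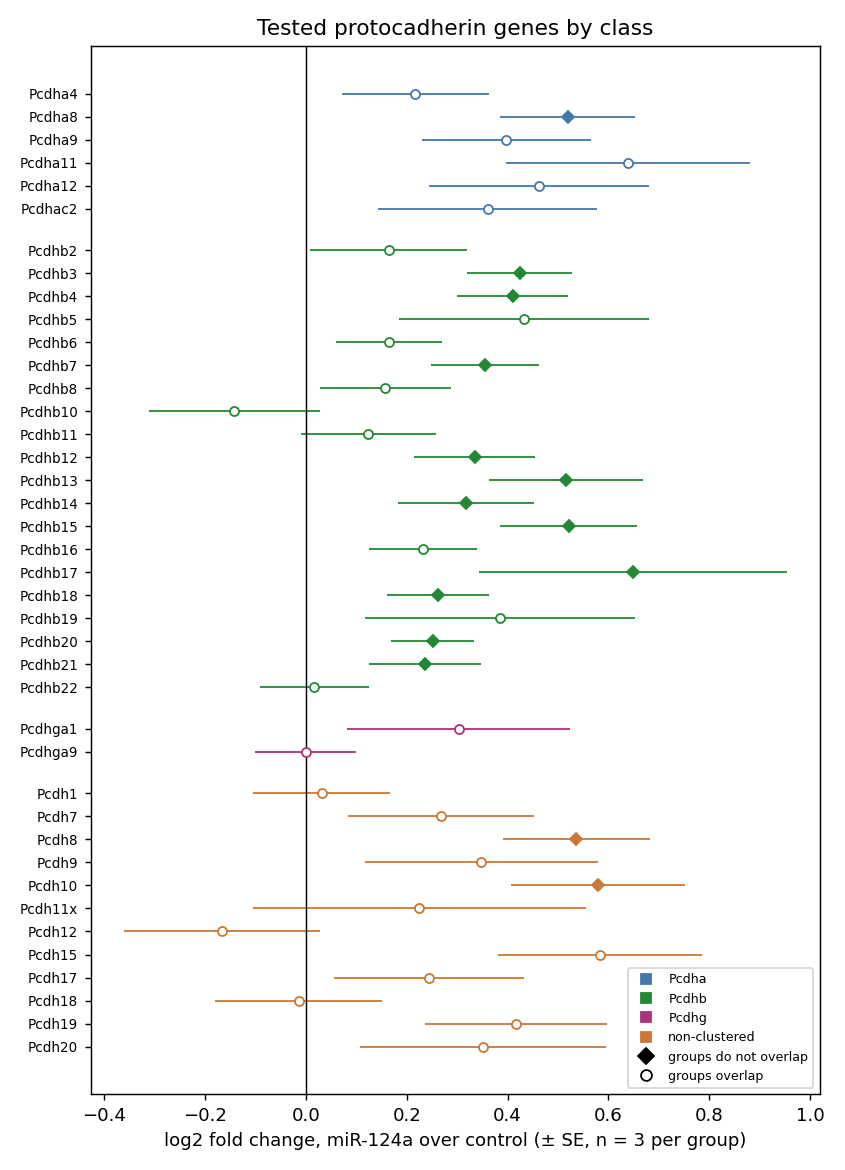
The plot gives the log2 fold change (x axis, miR-124a over control, with SE, n = 3 tumours per group) of each of the 40 tested protocadherins, coloured by class, with filled diamonds where the groups do not overlap. Of the 40 points, 36 lie right of 0, the 14 diamonds all do, and Pcdhb10, Pcdhga9, Pcdh12 and Pcdh18 do not.

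The alpha group was represented by 7 of its isoforms, of which 6 were tested. All 6 had log2 fold changes above 0, from 0.22 to 0.64 with a median of 0.43. At an unadjusted limma p under 0.05, 2 were higher, Pcdha8 and Pcdha11, as were 11.4% of all genes tested. For 1 the groups were separate with miR-124a higher, as for 15.0% of all genes tested. With the filter on all 6 arrays, which leaves out Pcdha11, the median was 0.40. With normexp the median of the 6 was 0.16. Relative signals of Pcdha8, a variable alpha isoform whose probe (mm9 chr18:37154205-37154264) is also annotated to Pcdha7, were 0.618, 0.747 and 0.565 in miR-124a tumours 1 to 3, against 0.487, 0.442 and 0.413 in control tumours 1 to 3. All 3 miR-124a tumours lay above the highest control tumour, and the log2 fold change was 0.52 ± 0.13 (limma, adjusted p = 0.0831). Pcdha12 had relative signals of 0.291, 0.326 and 0.249 in the miR-124a tumours and of 0.284, 0.168 and 0.189 in the control tumours. Control tumour 1 lay inside the miR-124a range, and the log2 fold change was 0.46 ± 0.22 (limma, adjusted p = 0.227). Pcdha11 had 0.0474, 0.0367 and 0.0270 in the miR-124a tumours, against 0.0212, 0.0291 and 0.0202 in the control tumours. Its log2 fold change was the highest of the group at 0.64 ± 0.24 (limma, adjusted p = 0.158) and was 0.08 with normexp, at signals where 2 of 3 control arrays were not well above background. Pcdha9 and Pcdha4 had log2 fold changes of 0.40 ± 0.17 (limma, adjusted p = 0.190) and 0.22 ± 0.15 (limma, adjusted p = 0.372), with groups that overlapped in both. With normexp and quantile scaling, Pcdha12, Pcdha9 and Pcdha4 had 0.24, 0.09 and 0.06.

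Pcdhac2 is a C-type alpha isoform that serotonergic axons of the mouse need in order to spread evenly over their targets. Both of its probes are annotated to transcripts of Pcdha4, Pcdha9, Pcdhac1 and Pcdhac2, so they do not tell these isoforms apart. By the layout given above, alpha isoforms have variable exons of their own and share only the constant exons. Probes common to these 4 isoforms therefore read shared sequence of the alpha group and not Pcdhac2 alone. The positions were not checked against exons. The first gave relative signals of 5.42, 7.29 and 5.20 in the miR-124a tumours and of 5.70, 4.81 and 3.53 in the control tumours, a log2 fold change of 0.36 ± 0.22 (limma, adjusted p = 0.322). Control tumour 1 lay above 2 of the 3 miR-124a tumours. That value was 0.63 both with quantile scaling (limma, adjusted p = 0.0960) and with normexp (limma, adjusted p = 0.0563), and 0.17 without control tumour 3. The second gave 5.81, 7.71 and 5.67 in the miR-124a tumours and 5.16, 4.08 and 3.66 in the control tumours, with no overlap and a log2 fold change of 0.57 ± 0.18 (limma over all tested probes, adjusted p = 0.122). The other C-type alpha isoform, Pcdhac1, was not well above background on any array with a probe of its own. Over the 6 tested alpha genes, miR-124a tumour 3 was the lowest of its group for 6 of 6 and miR-124a tumour 2 the highest for 5 of 6. Among the control tumours, tumour 1 was the highest for 5 of 6.

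The beta group was read in full, with 20 of its 22 genes tested. Log2 fold changes lay between -0.14 and 0.65 with a median of 0.29, and 19 of 20 were above 0. At an unadjusted limma p under 0.05, 8 were higher, as were 11.4% of all genes tested. For 11 the groups were separate with miR-124a higher, as for 15.0% of all genes tested. With the filter on all 6 arrays, which leaves out Pcdhb5 and Pcdhb19, the median was 0.26. With normexp the median of the 20 was 0.16. Pcdhb3 had the smallest p of all protocadherins, with relative signals of 0.591, 0.607 and 0.503 in the miR-124a tumours, against 0.416, 0.432 and 0.415 in the control tumours. Its control tumours lay close together and below every miR-124a tumour, and the log2 fold change was 0.42 ± 0.10 (limma, unadjusted p = 0.00604, adjusted p = 0.0775). Pcdhb15 had 0.198, 0.197 and 0.176 in the miR-124a tumours and 0.157, 0.115 and 0.128 in the control tumours. The groups were again separate, at a log2 fold change of 0.52 ± 0.14 (limma, adjusted p = 0.0843).

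Pcdhb4 had relative signals of 0.160, 0.130 and 0.149 in the miR-124a tumours and of 0.114, 0.103 and 0.112 in the control tumours, a log2 fold change of 0.41 ± 0.11 (limma, adjusted p = 0.0893). Pcdhb13 had 0.170, 0.194 and 0.136 in the miR-124a tumours, against 0.114, 0.107 and 0.127 in the control tumours, a log2 fold change of 0.51 ± 0.15 (limma, adjusted p = 0.105). Neither gene had overlapping groups, but miR-124a tumour 3 of Pcdhb13 stood close to control tumour 3. For Pcdhb7, the values were 0.738, 0.757 and 0.657 in the miR-124a tumours and 0.606, 0.514 and 0.562 in the control tumours, a log2 fold change of 0.36 ± 0.11 (limma, adjusted p = 0.109). For Pcdhb20 they were 0.889, 0.892 and 0.856 in the miR-124a tumours and 0.750, 0.710 and 0.755 in the control tumours, a log2 fold change of 0.25 ± 0.08 (limma, adjusted p = 0.123). For both genes the groups were separate. With normexp and quantile scaling, Pcdhb15, Pcdhb4 and Pcdhb13 had lower log2 fold changes of 0.23, 0.16 and 0.21.

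The other 14 tested beta genes held the extremes of the group, and those named next were picked after their values were seen. Pcdhb12, Pcdhb14, Pcdhb17, Pcdhb18 and Pcdhb21 also had groups that did not overlap, with log2 fold changes from 0.24 to 0.65 and adjusted p from 0.144 to 0.225 (limma). Pcdhb17 had the largest, 0.65 ± 0.31 (limma, adjusted p = 0.225), with relative signals of 0.807, 0.807 and 0.782 in the miR-124a tumours and of 0.709, 0.607 and 0.308 in the control tumours. Control tumour 3 stood below the others for that gene. Pcdhb10 was the only tested beta gene with a value below 0, at -0.14 ± 0.17 (limma, adjusted p = 0.616). Pcdhb22 had 0.02 ± 0.11 (limma, adjusted p = 0.934), and -0.02 with normexp. Over the 20 genes, miR-124a tumour 3 was the lowest of its group for 16, whereas among the control tumours the highest was tumour 1 for 7, tumour 2 for 5 and tumour 3 for 8.

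In the gamma group, 2 of 7 named genes were tested, so the data say little of the variable gamma isoforms. Pcdhga1 had relative signals of 0.0546, 0.0580 and 0.0530 in the miR-124a tumours and of 0.0434, 0.0334 and 0.0617 in the control tumours. Control tumour 3 exceeded every miR-124a tumour, and the log2 fold change was 0.30 ± 0.22 (limma, adjusted p = 0.410). It was 0.09 without control tumour 2, 0.54 without control tumour 3 and 0.03 with normexp. Both probes of Pcdhga9 are annotated to transcripts of Pcdhga1, Pcdhga5, Pcdhga6 and Pcdhga9 and do not tell them apart. Both lie beyond the probe of Pcdhgc5 in mm9. By the layout given above, gamma isoforms too share only the constant exons, so both probes read shared sequence of the group and not Pcdhga9 alone. Their positions were not checked against exons. The brighter gave 26.4, 27.0 and 27.3 in the miR-124a tumours and 27.4, 29.3 and 24.3 in the control tumours. These groups overlapped throughout, with a log2 fold change of -0.00 ± 0.10 (limma, adjusted p = 1.00), which was 0.17 with quantile scaling and 0.25 with normexp. The dimmer gave 2.20, 2.12 and 1.96 in the miR-124a tumours and 2.48, 1.79 and 1.39 in the control tumours, a log2 fold change of 0.19 ± 0.21 (limma over all tested probes, adjusted p = 0.597). The C-type isoform Pcdhgc5 was not tested, and Pcdhgc3 and Pcdhgc4 are not among the 48 names.

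**Figure D2:**
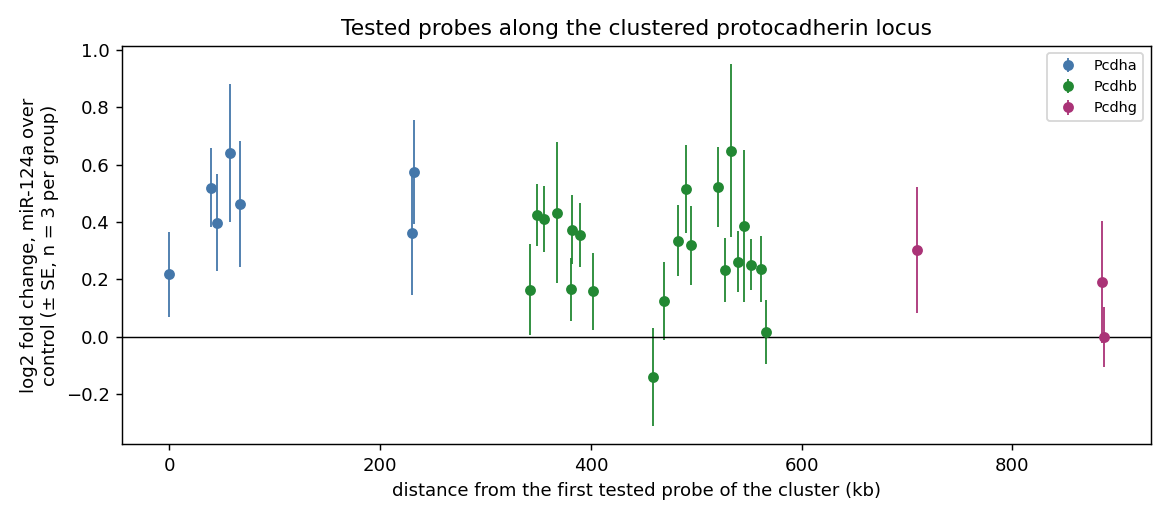
The plot gives the log2 fold change (y axis, miR-124a over control, with SE, n = 3 tumours per group) of every tested probe of the clustered genes against its distance in kb from the first such probe in mm9. Alpha probes span 0.22 to 0.64, beta probes span -0.14 to 0.65, and the last gamma probe, at 886.6 kb, lies at -0.00.

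Among the non-clustered genes, all 12 were tested and 10 had log2 fold changes above 0. At an unadjusted limma p under 0.05, 3 were higher, as were 11.4% of all genes tested. Where 15.0% of all genes tested had separate groups with miR-124a higher, 2 of the 12 did, Pcdh8 and Pcdh10. That is near the share of all genes and does not set the 12 apart. The delta-2 members are Pcdh8, Pcdh10, Pcdh17, Pcdh18 and Pcdh19. The log2 fold changes of the 12 ran from -0.17 to 0.58 with a median of 0.31, and those of the 5 delta-2 genes had a median of 0.42. The windows below run from 250 bases before to 50 bases after the RefSeq start in GRCm38.p6, 5′ to 3′ on the strand of the gene, and are shown for Pcdh8 and Pcdh10, whose groups were separate, and for Pcdh18, a delta-2 gene on the same chromosome as Pcdh10 with a log2 fold change near 0. Capitals mark a GC box (GGGCGG on either strand, so also CCGCCC) or the letters TATAAA on the strand shown or its complement.
Pcdh8, chr14:79771263-79771562, minus strand: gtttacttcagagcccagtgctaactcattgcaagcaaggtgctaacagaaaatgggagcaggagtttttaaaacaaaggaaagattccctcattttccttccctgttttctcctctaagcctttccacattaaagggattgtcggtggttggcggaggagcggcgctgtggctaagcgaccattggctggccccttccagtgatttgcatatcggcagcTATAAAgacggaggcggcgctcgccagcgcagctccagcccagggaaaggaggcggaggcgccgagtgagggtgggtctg
Pcdh10, chr3:45378148-45378447, plus strand: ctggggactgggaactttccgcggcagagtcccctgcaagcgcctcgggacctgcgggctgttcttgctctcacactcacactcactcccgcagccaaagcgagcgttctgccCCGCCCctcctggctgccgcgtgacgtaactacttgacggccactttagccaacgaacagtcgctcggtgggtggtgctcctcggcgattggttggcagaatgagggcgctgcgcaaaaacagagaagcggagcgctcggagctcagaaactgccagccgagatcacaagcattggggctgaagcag
Pcdh18, chr3:49757267-49757566, minus strand: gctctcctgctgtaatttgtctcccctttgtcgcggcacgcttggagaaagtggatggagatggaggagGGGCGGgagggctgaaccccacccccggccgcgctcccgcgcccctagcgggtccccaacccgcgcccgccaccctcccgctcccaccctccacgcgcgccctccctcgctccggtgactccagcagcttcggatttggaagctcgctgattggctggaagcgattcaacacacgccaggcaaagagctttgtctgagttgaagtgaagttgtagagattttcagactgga
The Pcdh8 window holds 14 CpG in 54.3% GC, 1 TATAAA and 0 GC boxes. The Pcdh10 window holds 24 CpG in 62.3% GC and the Pcdh18 window 23 CpG in 63.0% GC, each with 1 GC box and 0 TATAAA. Over all 32851 promoter windows of the table, 35.7% hold a GC box and 13.6% TATAAA, with a median of 52.7% GC and 7 CpG. Of the 10 windows for 9 non-clustered genes, 4 hold a GC box and 2 TATAAA. Pcdh10 and Pcdh18 were alike in the letters searched for and in CpG content, and their log2 fold changes were 0.58 and -0.01. Pcdh18 was picked for its value, and neither gene passed. Any part of the promoter letters in these values was not tested.

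Pcdh8, known in the rat as the activity-induced protein arcadlin, takes part in removing N-cadherin from synapses. Its brighter probe (mm9 chr14:80166728-80166787) gave relative signals of 3.63, 4.41 and 4.33 in the miR-124a tumours, against 2.39, 3.17 and 3.01 in the control tumours. The lowest miR-124a tumour lay above the highest control tumour, at a log2 fold change of 0.54 ± 0.15 (limma, adjusted p = 0.0903). The second probe gave 1.34, 1.59 and 1.28 in the miR-124a tumours and 0.863, 1.18 and 0.957 in the control tumours, again with no overlap, at 0.49 ± 0.15 (limma over all tested probes, adjusted p = 0.118). Pcdh8 passed the test in 1 of the 16 alternative analyses, normexp with quantile scaling, at a log2 fold change of 0.53 (limma, adjusted p = 0.0460). It was the only protocadherin to do so there, where 6.64% of all genes tested passed, 2.51% higher. Over the 16 alternatives its adjusted p lay between 0.0460 and 0.249.

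Pcdh10, also called OL-protocadherin, guides axons that pass through the ventral forebrain of the mouse. Its brightest probe (mm9 chr3:45227467-45227526) gave relative signals of 2.32, 3.46 and 2.54 in the miR-124a tumours and of 1.74, 2.05 and 1.71 in the control tumours. Every miR-124a tumour lay above every control tumour, and miR-124a tumour 2 was the highest, at a log2 fold change of 0.58 ± 0.17 (limma, adjusted p = 0.107). All 4 Pcdh10 probes had separate groups, with log2 fold changes of 0.38 to 0.59. When single tumours were left out, the value of the brightest probe lay between 0.41 and 0.70.

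Pcdh19, an X-linked gene whose loss causes an epilepsy mainly of girls in humans, had relative signals of 2.97, 3.80 and 2.73 in the miR-124a tumours and of 2.09, 2.87 and 2.16 in the control tumours. Control tumour 2 overlapped the miR-124a range, and the log2 fold change was 0.42 ± 0.18 (limma, adjusted p = 0.198), or 0.28 without miR-124a tumour 2. A second Pcdh19 probe gave 1.03, 1.37 and 0.970 in the miR-124a tumours and 0.717, 0.850 and 0.664 in the control tumours. There the groups were separate, at 0.59 ± 0.17 (limma over all tested probes, adjusted p = 0.104). Pcdh17, which acts at synapses of the mouse basal ganglia, had 2.07, 3.12 and 2.23 in the miR-124a tumours and 1.81, 2.39 and 2.01 in the control tumours, a log2 fold change of 0.24 ± 0.19 (limma, adjusted p = 0.435). The Pcdh17 value was 0.06 without miR-124a tumour 2 and reached 0.36 without miR-124a tumour 1. Pcdh18, which binds the reelin pathway adaptor Dab1 in the mouse, had 1.65, 1.41 and 1.34 in the miR-124a tumours and 1.23, 1.43 and 1.81 in the control tumours. The groups overlapped for Pcdh17 and Pcdh18, and the log2 fold change of Pcdh18 was -0.01 ± 0.17 (limma, adjusted p = 0.962), with values on both sides of 0 when single tumours were left out.

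Delta-1 genes, Pcdh1, Pcdh7, Pcdh9 and Pcdh11x, all had log2 fold changes above 0 with a median of 0.25, and none had separate groups at its brightest probe. Pcdh9 had relative signals of 0.874, 1.27 and 0.942 in the miR-124a tumours and of 1.05, 0.764 and 0.630 in the control tumours, at 0.35 ± 0.23 (limma, adjusted p = 0.365). Pcdh7 had 1.16, 1.63 and 1.17 in the miR-124a tumours and 1.28, 1.08 and 0.923 in the control tumours, at 0.27 ± 0.18 (limma, adjusted p = 0.383). In both genes control tumour 1 stood above 2 of the 3 miR-124a tumours. When single tumours were left out, Pcdh9 ranged from 0.18 (without control tumour 3) to 0.55 (without control tumour 1) and Pcdh7 from 0.11 (without miR-124a tumour 2) to 0.39 (without control tumour 1). Pcdh11x, on the X chromosome, had 1.96, 3.65 and 1.96 in the miR-124a tumours and 2.18, 2.77 and 1.46 in the control tumours, with a wide spread and a log2 fold change of 0.22 ± 0.33 (limma, adjusted p = 0.688). Its value lay on both sides of 0 when single tumours were left out. Pcdh1, an adhesion protein of airway epithelium in humans, had 0.831, 0.965 and 0.962 in the miR-124a tumours and 0.901, 1.03 and 0.776 in the control tumours, at 0.03 ± 0.14 (limma, adjusted p = 0.898). Leaving out single tumours put that value between -0.07 and 0.13.

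Pcdh15, Pcdh20 and Pcdh12 stand outside both delta classes as grouped here. Pcdh15, which pairs with Cdh23 to form the tip links of inner ear hair cells, had relative signals of 0.461, 0.715 and 0.706 in the miR-124a tumours and of 0.476, 0.380 and 0.382 in the control tumours. The groups overlapped through miR-124a tumour 1, which lay below control tumour 1, and the log2 fold change was 0.58 ± 0.20 (limma, adjusted p = 0.136). Of 16 retina and inner ear markers, 7 were tested and 0 passed, with summed relative signals of 1.61, 2.04 and 1.56 in the miR-124a tumours and of 1.76, 1.58 and 1.36 in the control tumours. The hair cell genes Cdh23, Tmc1, Atoh1 and Pou4f3 were among those that did not reach the level for testing. The marker with the highest log2 fold change was Lhfpl5, a tip link complex gene, at 0.67 ± 0.39 (limma, adjusted p = 0.307), with overlapping groups. Crx, with the smallest p of the 7, had -0.20 ± 0.10 (limma, adjusted p = 0.256). For Crx every miR-124a tumour lay below every control tumour.

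Pcdh20 had relative signals of 1.24, 1.91 and 1.58 in the miR-124a tumours and of 1.59, 1.24 and 0.920 in the control tumours, overlapping at 0.35 ± 0.24 (limma, adjusted p = 0.387). That value was 0.15 without control tumour 3 and 0.54 without control tumour 1. Pcdh12, an adhesion protein of endothelial cells, had 0.657, 0.914 and 0.602 in the miR-124a tumours and 0.783, 0.940 and 0.693 in the control tumours. Its log2 fold change of -0.17 ± 0.19 (limma, adjusted p = 0.609) was the lowest of all 40 protocadherins, and it was -0.04 without miR-124a tumour 3 and -0.35 without miR-124a tumour 2. The 14 endothelial markers were all tested, 0 passed and 6 were above 0. Tek had the smallest p of them, at -0.60 ± 0.19 (limma, adjusted p = 0.122). Summed relative signals of the 14 were 17.5, 24.1 and 20.7 in the miR-124a tumours and 21.1, 21.9 and 17.98 in the control tumours. In Pcdh12 and in the endothelial sum alike, miR-124a tumour 2 and control tumour 2 were the highest of their groups. This was common: of the 12 non-clustered genes, miR-124a tumour 2 was the highest for 11 and control tumour 2 for 7. The lowest miR-124a tumour was tumour 3 for Pcdh12 and tumour 1 for the endothelial sum.

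**Figure D3:**
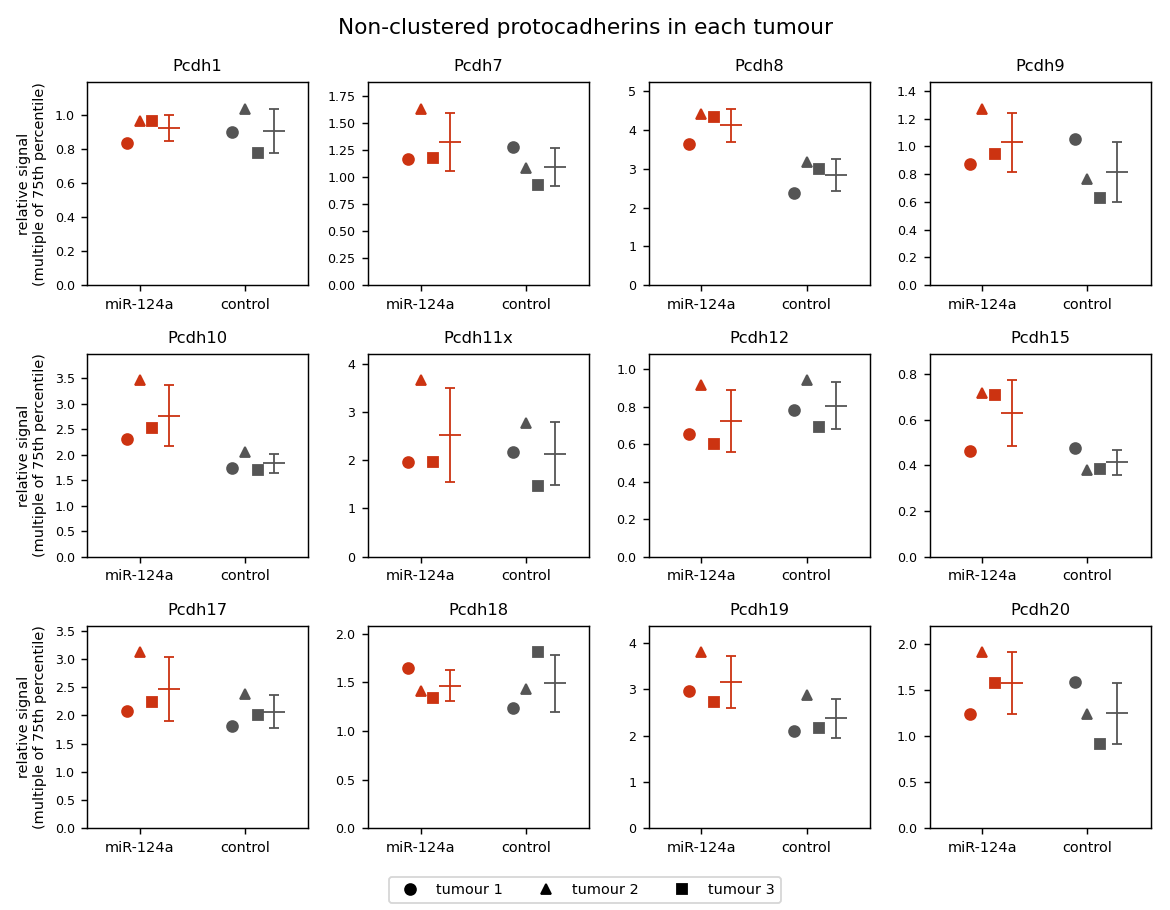
Each panel gives the relative signal (y axis from 0, as a multiple of the array's 75th percentile) of a non-clustered protocadherin in the 3 miR-124a tumours (red) and the 3 control tumours (grey), with the mean and SD beside them and a symbol for each tumour number. Only Pcdh8 and Pcdh10 have groups that do not overlap, near the share of all genes tested (15.0% with miR-124a higher). The miR-124a tumour 2 (triangle) is the highest of its group in 11 of 12 panels.

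The 60 tested probes show how far separate readings of a gene go together. Of them, 54 had a log2 fold change above 0 (50.6% of all 35719 tested probes did), 22 were higher at an unadjusted limma p under 0.05 (11.4%), 0 were lower at that p, and 22 had separate groups with miR-124a higher (14.9%). By class, 7 of 7 alpha, 20 of 21 beta, 2 of 3 gamma and 25 of 29 non-clustered probes lay above 0. Probes of a gene read the same tumours and are not replicates. More than 1 probe was tested for 12 genes, and 3 of these, Pcdhga9, Pcdh7 and Pcdh11x, had probes on both sides of 0. For Pcdh7 they gave 0.38, 0.27 and -0.34, the last from relative signals of 0.0854, 0.0895 and 0.109 in the miR-124a tumours and of 0.122, 0.100 and 0.138 in the control tumours. Pcdh15 had 5 tested probes of 7, all above 0, from 0.23 to 0.67. Pcdh9 had 0.35, 0.73 and 0.46, the middle value with separate groups. Pcdhb6, named here for its probes after its values were seen, had 0.16 with overlap and 0.37 without.

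**Figure D4:**
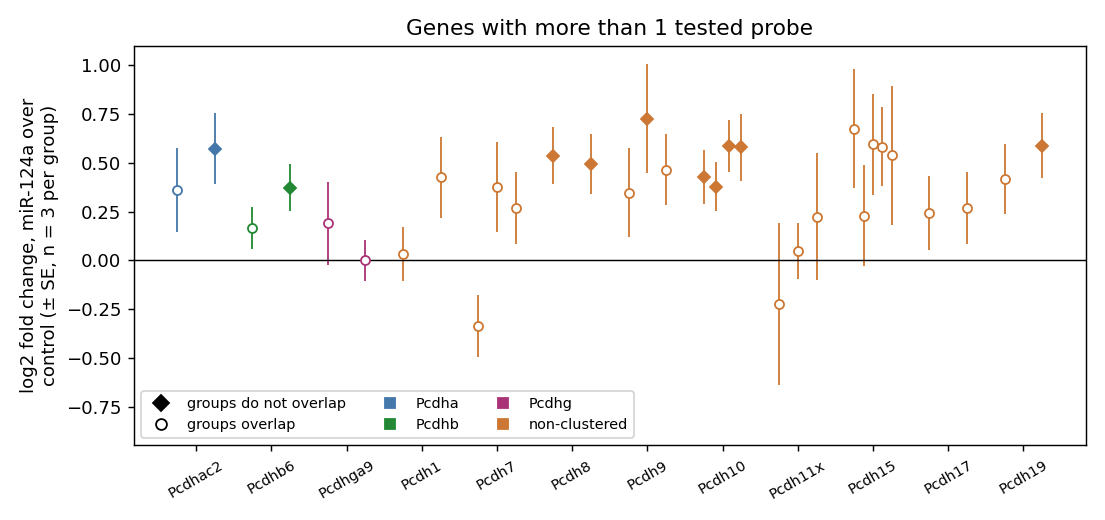
The plot gives the log2 fold change (y axis, miR-124a over control, with SE, n = 3 tumours per group) of each tested probe of the 12 genes with more than 1, coloured by class, with filled diamonds where the groups do not overlap. The probes of Pcdh8 and all 4 of Pcdh10 are diamonds above 0, while those of Pcdh7 and Pcdh11x lie on both sides of 0.

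The size of the protocadherin difference was not even across tumours. A class score is the median, over its tested genes, of a tumour's log2 signal relative to the control mean. Over all 40 genes the score was 0.30, 0.50 and 0.18 in miR-124a tumours 1 to 3 and 0.03, -0.00 and -0.08 in control tumours 1 to 3, so the groups did not overlap. This score and those of alpha and beta include Pcdha11, Pcdhb5 or Pcdhb19, tested only through the miR-124a arrays. Scores without these genes were not computed. The 12 non-clustered genes gave 0.12, 0.64 and 0.17 in the miR-124a tumours, against -0.01, 0.16 and -0.16 in the control tumours. Their score stood out in miR-124a tumour 2, and miR-124a tumour 1 lay below control tumour 2. The beta score was 0.34, 0.34 and 0.18 in the miR-124a tumours and 0.03, -0.07 and -0.00 in the control tumours, without that peak. The alpha score was 0.48, 0.66 and 0.20 in the miR-124a tumours and 0.18, 0.02 and -0.17 in the control tumours. The gamma score, over 2 genes, was 0.13, 0.19 and 0.13 in the miR-124a tumours and -0.01, -0.15 and 0.16 in the control tumours, where control tumour 3 overlapped. Over the 40 genes, miR-124a tumour 2 was the highest of its group for 29 and miR-124a tumour 3 the lowest for 27. Without miR-124a tumour 2 the median log2 fold change of the 12 non-clustered genes was 0.15, and without control tumour 3 it was 0.17, both less than the 0.31 of all 6 tumours.

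Neuron markers, like most protocadherins, had higher values in the miR-124a tumours. All 22 neuron markers were tested, 0 passed and 22 had a log2 fold change above 0, with a median of 0.46. At an unadjusted limma p under 0.05, 13 were higher, as were 11.4% of all genes tested. For 13 the groups were separate with miR-124a higher, as for 15.0% of all genes tested. The neuron score was 0.39, 0.64 and 0.33 in the miR-124a tumours and 0.09, 0.07 and -0.20 in the control tumours. Summed relative signals of the 22 were 349, 429 and 343 in the miR-124a tumours and 293, 288 and 245 in the control tumours. In both measures the groups were separate, and miR-124a tumour 2 was the highest and control tumour 3 the lowest, as in the scores of all protocadherins. The beta score had another order, with 0.34 in both miR-124a tumours 1 and 2 and control tumour 2 the lowest at -0.07. The markers with the smallest p were Tubb3, a neuronal tubulin, at 0.57 ± 0.11 (limma, adjusted p = 0.0531), and Elavl3, a neuronal RNA-binding protein, at 0.50 ± 0.13 (limma, adjusted p = 0.0798). The part of neuron content in the protocadherin values was not tested.

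The other marker lists differed from this. Of 16 neural progenitor markers 0 passed and 12 were above 0. The score was 0.37, 0.20 and 0.12 in the miR-124a tumours and -0.25, -0.01 and 0.23 in the control tumours, with overlap. Those with the smallest p were Nes, at -0.61 ± 0.14 (limma, adjusted p = 0.0704), and Lhx2, at 0.54 ± 0.16 (limma, adjusted p = 0.108). Of 15 astrocyte and oligodendrocyte markers 0 passed and 8 were above 0, with a median of 0.03. All 17 tested skeletal muscle markers were below 0 and 16 passed, where 2.75% of all genes tested passed lower. Their median was -1.64. Summed relative signals were 268, 286 and 385 in the miR-124a tumours and 868, 1117 and 708 in the control tumours. Myf5 was not tested. Of 13 tested mesenchyme and cartilage markers 8 were below 0 and 1 passed, Prrx1, at -0.86 ± 0.09 (limma, adjusted p = 0.0210). None of 13 epithelial markers passed, 1 was above 0, and none of 10 macrophage markers passed, with 4 above 0. All of these calls were lost when miR-124a tumour 2 or control tumour 2 was left out, where 0 of 22946 genes passed (limma) and 4100 and 4784 had an unadjusted p under 0.05. Without miR-124a tumour 1, 1 gene passed in all, and without control tumour 1, 13 did. The part of these tissues in the protocadherin values was not tested.

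**Figure D5:**
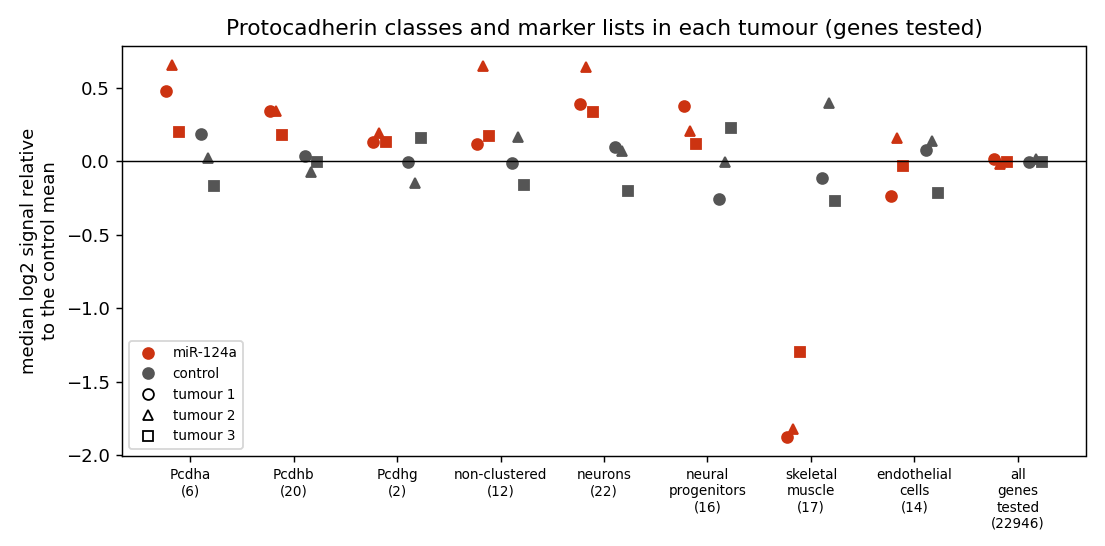
The plot gives, per tumour, the median log2 signal relative to the control mean (y axis) over the tested genes of each protocadherin class and of 4 marker lists, and over all 22946 genes tested, with miR-124a tumours in red left of control tumours in grey. The non-clustered and neuron scores of miR-124a tumour 2 (red triangle) are both 0.64, all genes tested lie near 0, and the skeletal muscle scores of the miR-124a tumours lie between -1.88 and -1.30.

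Genes that act on or with protocadherins were read from a pair of lists. The regulators of the cluster, made up of CTCF, cohesin and chromatin genes, were all 22 tested. Of these 0 passed and 13 were above 0, with a median of 0.05. At an unadjusted limma p under 0.05, 0 were higher and 1 lower, where 11.4% and 15.9% of all genes tested were. Separate groups were found for 0 with miR-124a higher and for 3 with miR-124a lower, against 15.0% and 20.6% of all genes tested. The pair with the smallest p was Stag2, a cohesin subunit, at -0.29 ± 0.10 (limma, adjusted p = 0.135), and Rest, a repressor of neuronal genes, at -0.32 ± 0.14 (limma, adjusted p = 0.206). Genes for signalling and cleavage partners of protocadherins were all 27 tested, 0 passed and 19 were above 0, with a median of 0.16. At an unadjusted limma p under 0.05, 9 were higher and 2 lower, as were 11.4% and 15.9% of all genes tested. Ppp1ca, the protein phosphatase 1 subunit that delta-1 members bind, had -0.31 ± 0.09 (limma, adjusted p = 0.100), and Wasf3, a WAVE protein, had 0.42 ± 0.13 (limma, adjusted p = 0.107). The Ppp1ca value was -0.12 with quantile scaling alone and -0.04 with normexp and quantile scaling.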

How the data were processed

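Total RNA of 6 teratomas, 3 given miR-124a and 3 given the negative control, was read on 1-colour Agilent arrays, with labels grouping the tumours. The deposited intensity values were, per the file headers, corrected for background and for trends within each array by Agilent Feature Extraction 11.5.1.1, and were not scaled between arrays. The authors' value table holds log2 values equal to the log2 deposited intensity after a fixed shift of each array (SD of what remained 0.0029 to 0.0042), with column medians of -2.97 to -3.07, and it was used as an alternative. Which tool made it is not stated there.

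Values were log2 intensity minus the array's 75th percentile. Control spots and 22 outlier probes were left out, and 35719 of 56605 probes were tested, namely those that all 3 arrays of either group read well above background. That flag was set for 63.4% to 65.9% of probes per array, and 0 were saturated. A gene was shown by its brightest tested probe. Gene names came from RefSeq GRCm38.p6 by accession (32994 probes), symbol (10224) or older symbol (520), or from the file (12867). Testing used lmFit and eBayes of limma 3.58.1 (R 4.3.3) with no covariates over 22946 genes and was checked on simulated data. Promoters are from RefSeq. The number of arrays limits the precision. Every non-clustered member, the up to 6 members of each clustered class with the smallest p and the C-type isoforms are named. From each of 13 gene lists, up to 4 genes that passed or, with none, up to 2 with the smallest p were picked. Only some of those picked are named here. The members and the lists were chosen with earlier results of these data known. Same-numbered tumours were not paired: their deviations from the group means correlated at -0.16, -0.04 and -0.06. Alternatives were quantile scaling, normexp (offset 50) with quantile scaling, the authors' table, no filter, every probe in place of the brightest or their mean, a filter on all 6 arrays, a replicate block, variance trend with robust estimation, array weights, and leaving out each tumour.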

Additional observations from a re-analysis of the deposited data

How the results depend on the processing

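No protocadherin passed in the main analysis or in 15 of 16 alternatives, and with normexp 1 did, Pcdh8. At an unadjusted limma p under 0.05 there were 13 members, and 7 to 16 when single tumours were left out. The number of all genes passing was 742, against 1523 with normexp, 96 without the filter, 1721 with variance trend and robust estimation, and 0 to 375 when single tumours were left out. With the replicate number as a block it was 0 (4953 at an unadjusted p under 0.05), and 0 protocadherins passed (11 unadjusted); same-numbered tumours share only a number. The alpha median of 0.43 was 0.16 with normexp and 0.34 to 0.55 over leave-one-out fits, and the beta median of 0.29 was 0.16 and 0.22 to 0.33. The gamma median of 0.15 was -0.000112 without the filter and 0.08 to 0.23 over leave-one-out fits. For the non-clustered genes it was 0.15 to 0.41. Of the 26 tested members named by the rule given above, 22 kept their sign in every alternative that gave them a value. That was all 16 except for Pcdha11, left out by the filter on all 6 arrays. The beta genes picked after their values were seen are not among the 26, and of these Pcdhb22 was -0.02 with normexp. Pcdhga9 (-0.00) was 0.17 with quantile scaling, 0.25 with normexp, 0.10 as the mean of its probes and -0.0730 to 0.0603 over leave-one-out fits. Pcdh18 was 0.0267 with array weights and -0.14 to 0.13 over leave-one-out fits, Pcdh1 -0.0733 to 0.13 and Pcdh11x -0.0740 to 0.44. The causes were not tested. For the tested genes named outside the protocadherins, except Crx, the same alternatives were added after seeing the data, and none changed sign. Signals of Pcdha11, Pcdhb5 and Pcdhb19 lay near the background in the control tumours, which limits their folds, and 8 members were tested only without the filter.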

Other observations

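The relatives of the protocadherins were read from a further pair of lists. Of 22 classical cadherins, 19 were tested and 13 had a log2 fold change above 0, with a median of 0.15. Separate groups with miR-124a higher were found for 7, and for 15.0% of all genes tested. Of the 19, 1 passed, lower, as did 2.75% of all genes tested. That gene was Cdh15, the M-cadherin of muscle precursor cells, with relative signals of 1.54, 1.86 and 1.66 in the miR-124a tumours and of 4.56, 6.39 and 4.22 in the control tumours, a log2 fold change of -1.57 ± 0.18 (limma, adjusted p = 0.0211). Of 25 atypical cadherins, 20 were tested, 12 were above 0 with a median of 0.08, and 1 passed, higher, as did 0.488% of all genes tested. It was Celsr3, a planar polarity cadherin that guides axons in the mouse, with 5.47, 5.47 and 4.87 in the miR-124a tumours and 2.91, 2.82 and 3.57 in the control tumours, a log2 fold change of 0.77 ± 0.12 (limma, adjusted p = 0.0360). In both genes the groups were separate. Over the 16 alternatives, adjusted p lay between 0.00856 and 0.111 for Cdh15, which passed in 10, and between 0.0155 and 0.149 for Celsr3, which passed in 9. Both calls were lost without miR-124a tumour 1 or 2 and without control tumour 1 or 2, and Celsr3 also without miR-124a tumour 3. The cause of neither was tested.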
